A study of Mus musculus with 53 samples.

Results

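Tumours treated with an antibody against PD-L1 were set against tumours treated with an antibody against CD8, over both forms of one mouse mammary tumour line. The members are the 11 of the 53 bulk RNA libraries of the series that carry either antibody label, chosen by their sample titles: 3 WGD- and 3 WGD+ anti-PD-L1 libraries, against 2 WGD- and 3 WGD+ anti-CD8 libraries. All 11 tumours grew from TA3 Hauschka cells, a murine mammary tumour line of which 2 engineered forms were used, WGD- (no whole genome doubling) and WGD+ (whole genome doubled). The hosts were female A/J mice aged 6 weeks, an inbred strain that has its own lymphocytes, and they received the cells, mixed with Matrigel, in inguinal mammary fat pads. Antibody treatment lasted 14 days. The sources used here give neither the antibody clones and doses, nor whether a form is a single clone. They do not say that replicates came from separate animals either, and the p-values therefore reflect library-to-library spread that may be technical. The series also has 6 isotype control libraries of this experiment, which entered no test here.

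PD-L1, encoded by Cd274, is a surface ligand on tumour and myeloid cells that engages the receptor PD-1 (Pdcd1) on activated T cells and restrains them, and blocking it is a standard form of checkpoint immunotherapy. CD8 is the coreceptor of cytotoxic T cells, made of an alpha chain (Cd8a) and a beta chain (Cd8b1), and antibodies against it are widely used in mice to remove these cells. Activated CD8 T cells and natural killer cells release interferon-gamma, which acts through transcription factors such as IRF1 on tumour and myeloid cells to switch on antigen presentation genes, guanylate-binding proteins, T cell attracting chemokines and Cd274 itself. In bulk tissue, fewer cells of a type and less RNA per cell cannot be told apart.

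Sequencing depth was even, with 10.8 M to 14.2 M assigned reads per library, so that 1 read was worth 0.0692 to 0.0903 CPM, the count scaled to a common library total. Levels are the deposited log2(CPM + 1) values, and every difference is anti-PD-L1 minus anti-CD8 on that scale, which understates the change of low genes. The defining mammary epithelial markers Epcam (7.47 to 8.17), Krt8 (8.67 to 9.80) and Krt18 (7.71 to 8.98) were high in all 11 libraries, Cdh1 lay between 5.05 and 6.79, and Krt19 between 1.90 and 6.26. Of the 6 genotype check genes, Slc7a11 and Lpar3 separated the genotype labels in all 11 libraries. Slc7a11 lay at 6.34 to 7.19 in WGD+ and 3.48 to 4.33 in WGD- libraries, and Lpar3 at 0.80 to 1.22 in WGD+ and 3.18 to 4.09 in WGD- libraries. These genes were chosen with earlier results of these data known, and genome doubling itself was not tested. WGD+ anti-PD-L1 replicate 3 stood apart from the other libraries, with a best correlation of 0.972 against a limit of 0.974, and leaving it out changed no count of called genes.

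No gene passed an adjusted p of 0.05 in any of the 4 comparisons, which tested 13453 genes with limma and Benjamini-Hochberg adjustment. The share called was 0% over both forms with genotype as covariate, in WGD- tumours, in WGD+ tumours and for the difference between the forms, and the smallest adjusted p was 0.294, 0.0882, 0.969 and 0.227 in that order. The voom fit of recovered reads also called 0 genes in each. The counts of 0 did not hold when either of 2 anti-PD-L1 libraries was left out: without WGD- replicate 3 there were 1 call over both forms, 3069 in WGD- tumours and 1308 for the difference between forms, and without WGD+ replicate 1 there were 23 over both forms. At an unadjusted p under 0.05, 641 genes were higher and 299 lower over both forms, 4.76% and 2.22% of those tested. In WGD- tumours the corresponding shares were 10.9% higher and 11.8% lower, in WGD+ tumours 2.31% higher and 1.80% lower, and for the difference between forms 9.77% higher in WGD+ and 6.91% lower. The counts below are therefore descriptions read against those shares, and no single gene is reported as changed.

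The PD-L1 gene itself, Cd274 (chr19:29367455-29388095, mm10, as all gene coordinates here), differed more between the 2 antibodies than any other gene of the 4 named in the treatments and their receptor. It stood at 6.00, 6.54 and 4.01 in WGD- and 3.16, 4.90 and 5.90 in WGD+ anti-PD-L1 libraries, against 2.70 and 2.58 in WGD- and 2.62, 2.80 and 2.46 in WGD+ anti-CD8 libraries. All 6 anti-PD-L1 libraries lay above all 5 anti-CD8 libraries, and the difference over both forms was 2.41 (SE 0.54, limma adjusted p = 0.366). Its group means were 5.52 ± 1.33 (SD, n = 3) in WGD- anti-PD-L1 and 2.64 ± 0.08 (SD, n = 2) in WGD- anti-CD8 tumours, and 4.65 ± 1.39 in WGD+ anti-PD-L1 and 2.62 ± 0.17 in WGD+ anti-CD8 tumours (SD, n = 3 each). The spread was thus wide under anti-PD-L1 and narrow under anti-CD8, a pattern that recurs in most immune genes below. The macrophage list was an exception in WGD+ tumours, with a median SD of 0.32 under anti-PD-L1 and 0.58 under anti-CD8. In WGD+ tumours the B cell, dendritic and mast cell lists also had the wider spread under anti-CD8. Pdcd1 (chr1:94038305-94052553), which encodes PD-1, read 2.42, 3.86 and 0.54 in WGD- and 0.95, 1.68 and 2.27 in WGD+ anti-PD-L1 libraries, against 0.95 and 0.10 in WGD- and 0.70, 0.60 and 0.27 in WGD+ anti-CD8 libraries. Its groups overlapped in WGD- tumours, where replicate 3 under anti-PD-L1 lay inside the anti-CD8 range, and did not overlap in WGD+ tumours (1.40 over both forms, SE 0.50, adjusted p = 0.621).

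The 2 genes of the CD8 coreceptor were low in every anti-CD8 library. Cd8a (chr6:71373427-71379173) stood at 3.27, 4.56 and 0.93 in WGD- and 0.75, 2.12 and 3.20 in WGD+ anti-PD-L1 libraries, against 0.67 and 0.38 in WGD- and 0.61, 0.42 and 0.19 in WGD+ anti-CD8 libraries. Cd8b1 (chr6:71322788-71337494) read 2.33, 3.53 and 0.61 in WGD- and 0.42, 1.49 and 2.14 in WGD+ anti-PD-L1 libraries, against 0 and 0 in WGD- and 0.24, 0.33 and 0.10 in WGD+ anti-CD8 libraries. Within each form neither gene overlapped between the antibodies, although WGD- anti-PD-L1 replicate 3 and WGD+ anti-PD-L1 replicate 1 came close to the anti-CD8 libraries. The differences over both forms were 1.96 (SE 0.61, adjusted p = 0.523) for Cd8a and 1.59 (SE 0.48, adjusted p = 0.486) for Cd8b1. An exact permutation test of each gene alone, two-sided over 200 arrangements of the antibody labels within each form, gave p = 0.025 for both. Since neither gene overlapped within a form, no arrangement could give a larger positive difference. The other arrangements counted in that p had differences of the opposite sign. These 2 tests were added after the values were known and are not adjusted.

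**Figure D1:**
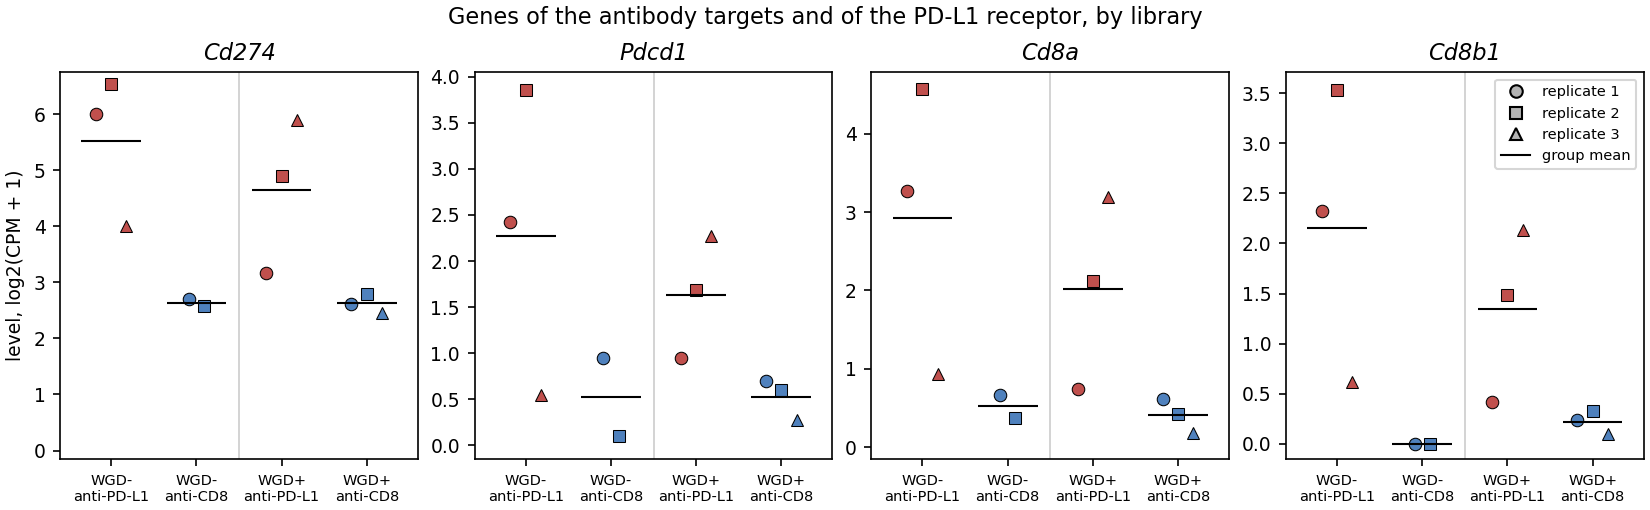
Level of 4 genes (y axis, log2(CPM + 1)) in each library, by form and antibody (x axis), with symbols for the replicate number and a black line for the group mean. Cd274 lay between 3.16 and 6.54 in the 6 anti-PD-L1 libraries and between 2.46 and 2.80 in the 5 anti-CD8 libraries, and Cd8a and Cd8b1 also separated, whereas Pdcd1 overlapped in WGD- tumours.

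For scale, the isotype libraries of the same table, which were not tested, had Cd8a levels of 1.53, 3.21 and 3.10 in WGD- and 1.10, 0.51 and 0.38 in WGD+ tumours, and Cd274 levels of 4.70, 5.24 and 5.66 in WGD- and 4.27, 2.14 and 3.53 in WGD+ tumours. In the genotype check genes Slc7a11 (4.81) and Lpar3 (3.22), WGD+ isotype replicate 2 lay nearer to the WGD- than to the other WGD+ libraries. Its Slc7a11 level was still above that of every WGD- library.

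Across the 33 gene lists, the interferon-gamma response genes had the largest median difference over both forms and in WGD+ tumours, while in WGD- tumours the MHC class II list had the same median at 2 decimals. All 24 members were tested, all 24 had a difference above 0 over both forms, and the median difference was 2.19, against -0.02 for all genes tested. An unadjusted p under 0.05 was reached by 24 of 24 members over both forms, by 22 in WGD- and by 9 in WGD+ tumours, with 0 members passing the adjusted threshold in each. The list median was 2.68 in WGD- and 1.83 in WGD+ tumours, and no member reached an unadjusted p under 0.05 for the difference between forms. Over both forms and all settings tried it stayed between 1.84 and 2.71. These genes moved together from library to library, so their counts are not independent of each other.

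Irf1 (chr11:53770014-53778374), the transcription factor that carries much of the interferon-gamma response, had the smallest p of the list. It stood at 8.40, 8.63 and 7.06 in WGD- and 6.68, 8.0 and 8.65 in WGD+ anti-PD-L1 libraries, against 5.60 and 5.48 in WGD- and 6.36, 6.18 and 6.01 in WGD+ anti-CD8 libraries. No anti-PD-L1 library fell to the level of an anti-CD8 library, and the difference over both forms was 1.99 (SE 0.39, adjusted p = 0.366). Nos2 (chr11:78920787-78960254), the inducible nitric oxide synthase of activated macrophages, came next at 6.12, 7.02 and 5.09 in WGD- and 3.27, 4.52 and 5.37 in WGD+ anti-PD-L1 libraries, against 3.85 and 3.87 in WGD- and 2.81, 3.04 and 2.78 in WGD+ anti-CD8 libraries. Its levels did not overlap within a form (1.82, SE 0.40, adjusted p = 0.366).

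In total 127 of the 13453 genes, 0.944%, were higher in every anti-PD-L1 than in every anti-CD8 library within each form, and 69, or 0.513%, were lower. The interferon-gamma list held 7 of those 127, among them Irf1, Nos2 and the guanylate-binding protein genes Gbp2, Gbp2b, Gbp4 and Gbp5. Guanylate-binding proteins are interferon-induced GTPases that attack intracellular pathogens. Within WGD- tumours alone, 22 of 24 members did not overlap, where 15.4% of all genes were higher without overlap and 21.5% lower, shares that 3 against 2 libraries make common. Within WGD+ tumours 7 of 24 did not overlap, against 5.13% of all genes higher and 5.22% lower. Cxcl9, a chemokine that draws CXCR3-bearing T cells, had the largest difference of the list at 3.64 (SE 0.99, adjusted p = 0.479), with 7.60, 8.14 and 3.97 in WGD- and 2.91, 5.53 and 7.93 in WGD+ anti-PD-L1 libraries, against 2.34 and 1.85 in WGD- and 3.72, 1.90 and 1.86 in WGD+ anti-CD8 libraries. There the groups overlapped in WGD+ tumours, where replicate 1 under anti-PD-L1 lay below replicate 1 under anti-CD8. Reads of the guanylate-binding genes, which include close copies, may be divided between them in ways the counting step decides.

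**Figure D2:**
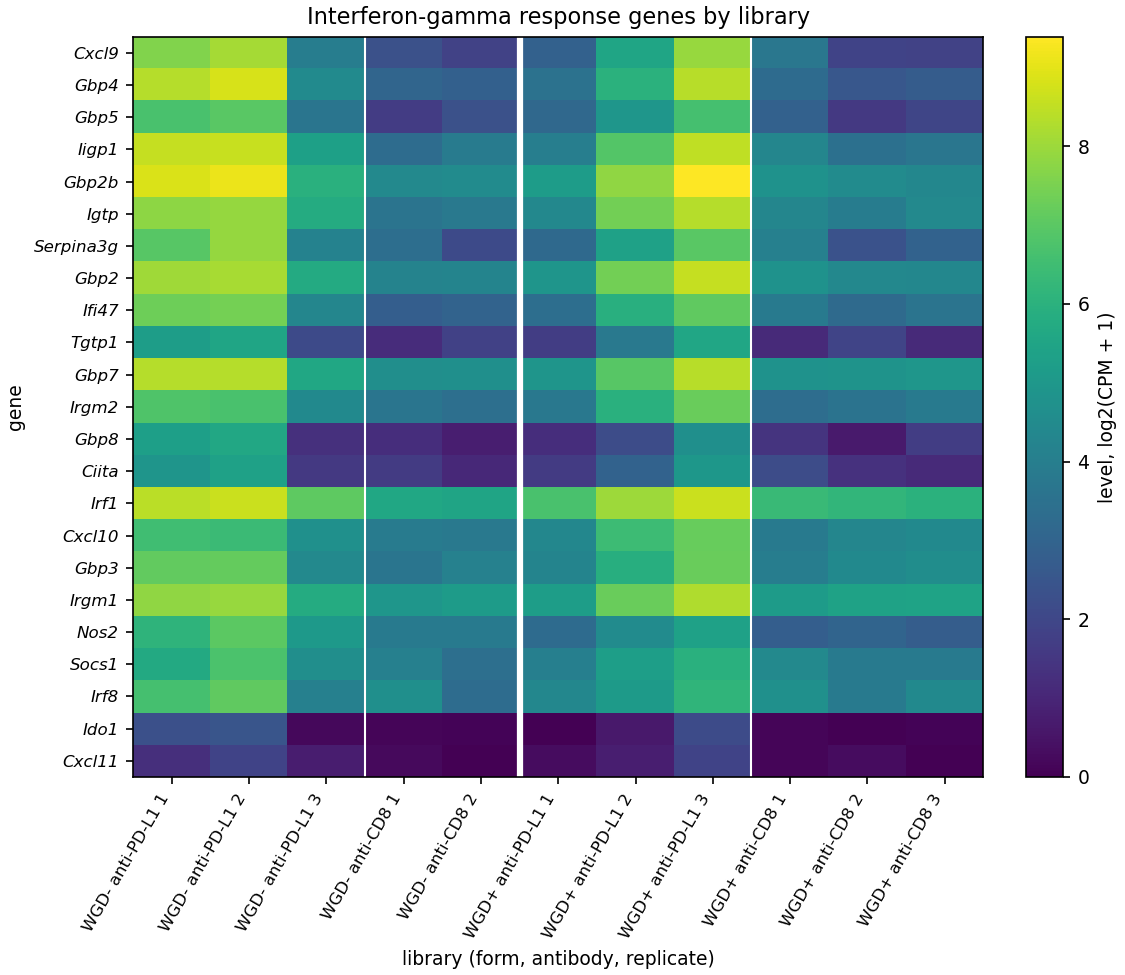
Level (colour, log2(CPM + 1)) of the interferon-gamma response genes reported here (rows, by difference over both forms) in the 11 libraries (columns, WGD- left of the thick line and WGD+ right of it). In both forms 2 of the 3 anti-PD-L1 libraries are bright down the whole list, while WGD- anti-PD-L1 replicate 3 and WGD+ anti-PD-L1 replicate 1 are nearer to the anti-CD8 libraries.

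The promoters of 3 of these genes and of Cd274 are printed because they show where interferon-type motifs lie in genes that differed between the antibodies without overlap. The sequences are RefSeq promoters on GRCm38.p6, from 250 bases before to 50 bases after the annotated start, written 5′ to 3′ along the gene. Capitals mark a match on either strand to the GAS-type (gamma-activated sequence) motif TTCNNNGAA or to the IRF-type motif GAAANNGAA, both 9 letters long. Where a gene has several starts, the first in the table is shown.
Irf1, chr11:53769764-53770063, plus strand: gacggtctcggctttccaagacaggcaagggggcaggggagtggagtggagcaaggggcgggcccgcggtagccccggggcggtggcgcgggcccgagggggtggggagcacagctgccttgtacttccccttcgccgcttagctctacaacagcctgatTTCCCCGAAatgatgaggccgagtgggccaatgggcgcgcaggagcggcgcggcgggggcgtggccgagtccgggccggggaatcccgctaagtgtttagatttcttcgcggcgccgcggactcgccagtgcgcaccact
Gbp5, chr3:142496684-142496983, plus strand: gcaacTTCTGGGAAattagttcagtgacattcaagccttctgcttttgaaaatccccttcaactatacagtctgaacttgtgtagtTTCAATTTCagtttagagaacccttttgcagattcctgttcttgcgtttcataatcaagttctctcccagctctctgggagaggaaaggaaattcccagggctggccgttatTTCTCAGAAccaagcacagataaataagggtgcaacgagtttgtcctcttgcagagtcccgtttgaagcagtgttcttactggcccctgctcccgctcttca
Gbp2, chr3:142620413-142620712, plus strand: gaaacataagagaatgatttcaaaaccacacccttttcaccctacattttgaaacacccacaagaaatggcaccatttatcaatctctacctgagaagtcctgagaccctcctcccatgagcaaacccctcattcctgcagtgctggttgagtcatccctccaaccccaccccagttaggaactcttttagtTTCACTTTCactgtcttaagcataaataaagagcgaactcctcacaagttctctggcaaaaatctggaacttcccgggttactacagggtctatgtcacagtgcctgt
Cd274, chr19:29367188-29367487, plus strand: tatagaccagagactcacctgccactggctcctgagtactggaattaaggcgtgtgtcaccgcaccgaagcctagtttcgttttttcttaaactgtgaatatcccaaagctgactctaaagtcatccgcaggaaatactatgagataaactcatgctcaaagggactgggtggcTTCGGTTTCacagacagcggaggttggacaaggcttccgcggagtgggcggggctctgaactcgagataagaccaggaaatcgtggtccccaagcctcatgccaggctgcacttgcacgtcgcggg
Irf1 held 1 GAS-type match, whose first base lay at -90 from the start, and Gbp5 held 2 GAS-type matches and 1 IRF-type match, with 0 overlaps between them. Gbp2 and Cd274 each held 1 IRF-type match, with first bases at -58 and -76. Promoters were available for 16 of the 24 interferon-gamma list genes, 19 promoters in all. The GAS-type motif occurred in 8 of these 19 (42.1%) and in 8.30% of all 32851 promoters. The IRF-type motif occurred in 12 of 19 (63.2%) and in 8.56% of all promoters. In the MHC class I list below, the GAS-type motif occurred in 1 of 14 promoters (7.14%) and the IRF-type motif in 3 (21.4%). In the type I interferon list these were 2 of 15 (13.3%) and 9 (60%). The interferon-gamma list was drawn up by that response, so its motif shares do not bear on the antibody difference. A match is a description of letters, not of binding, and no test was attached to it.

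The MHC class I presentation genes, which load peptides onto class I molecules for CD8 T cells to read, had a smaller median difference in the same direction. All 14 listed genes were tested, 14 had a difference above 0 and 14 had an unadjusted p under 0.05 over both forms, with a median of 1.24 and 0 passing the adjusted threshold. The median was 1.82 in WGD- and 0.87 in WGD+ tumours. Psme1, a proteasome activator subunit, read 8.78, 8.82 and 8.21 in WGD- and 7.75, 8.47 and 8.90 in WGD+ anti-PD-L1 libraries, against 7.34 and 7.27 in WGD- and 7.86, 7.66 and 7.62 in WGD+ anti-CD8 libraries (0.94, SE 0.21, adjusted p = 0.366). Tapbp, which encodes tapasin, the factor that tethers class I molecules to the peptide transporter, differed by 1.06 (SE 0.24, adjusted p = 0.366). For both genes WGD+ anti-PD-L1 replicate 1 lay within the range of the WGD+ anti-CD8 libraries. Of the 14 members 0 were free of overlap in both forms, against 0.944% of all genes higher and 0.513% lower. In WGD- tumours alone 13 of 14 were higher without overlap, against 15.4% of all genes higher and 21.5% lower. In WGD+ tumours 0 of 14 were free of overlap, against 5.13% of all genes higher and 5.22% lower. There 2 of 14 had an unadjusted p under 0.05. In single genes, the difference over both forms was 1.63 for Tap1, a subunit of the peptide transporter, 2.02 for Psmb9, an immunoproteasome subunit, 2.12 for Nlrc5, the class I transactivator, 0.98 for H2-K1 and 0.95 for B2m.

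Of the MHC class II genes, whose products present peptides to CD4 T cells, 8 of 9 were tested. All 8 lay above 0, with a median of 1.74 over both forms, 2.68 in WGD- and 0.92 in WGD+ tumours, and 6 of 8 had an unadjusted p under 0.05 over both forms. Cd74, the invariant chain, had levels of 9.68, 9.83 and 6.89 in WGD- and 6.98, 7.89 and 9.08 in WGD+ anti-PD-L1 libraries, against 6.59 and 5.05 in WGD- and 7.89, 6.64 and 6.67 in WGD+ anti-CD8 libraries. The groups overlapped in WGD+ tumours (1.83, SE 0.68, adjusted p = 0.668). H2-DMa, a peptide exchange factor, differed by 1.66 (SE 0.62, adjusted p = 0.668).

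Cytotoxic lymphocyte genes were low in absolute level. In WGD- tumours the mean level of the list was 0.79 to 0.98 under anti-CD8 and 1.47 to 3.59 under anti-PD-L1. In WGD+ tumours the ranges overlapped, at 0.64 to 1.35 under anti-CD8 and 1.11 to 2.38 under anti-PD-L1. Of 14 listed genes 11 were tested, all 11 lay above 0 (median 1.03 over both forms, 1.85 in WGD- and 0.58 in WGD+ tumours), and 8 had an unadjusted p under 0.05 over both forms. Prf1, which encodes the pore-forming protein perforin, stood at 2.83, 3.49 and 1.42 in WGD- and 1.47, 1.21 and 2.35 in WGD+ anti-PD-L1 libraries, against 0.81 and 0.29 in WGD- and 0.77, 0.23 and 0.10 in WGD+ anti-CD8 libraries. Its groups did not overlap in either form (1.63, SE 0.37, adjusted p = 0.366). Ifng, the interferon-gamma gene, read 2.28, 3.59 and 1.46 in WGD- and 0.23, 2.42 and 3.26 in WGD+ anti-PD-L1 libraries, against 0.12 and 0.20 in WGD- and 0.34, 0 and 0 in WGD+ anti-CD8 libraries. The groups separated in WGD- tumours and overlapped in WGD+ tumours through replicate 1 under anti-PD-L1 (2.04, SE 0.51, adjusted p = 0.397). Gzmb, which encodes granzyme B, was the other member without overlap in either form, at 4.77, 5.85 and 1.42 in WGD- and 1.38, 2.71 and 3.70 in WGD+ anti-PD-L1 libraries, against 1.18 and 0.61 in WGD- and 0.91, 0.75 and 0.98 in WGD+ anti-CD8 libraries; it is named here after its values were seen.

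T cell genes other than the coreceptor had a larger median difference in WGD- than in WGD+ tumours. Of 22 listed T cell receptor and signalling genes 12 were tested, 10 lay above 0 over both forms with a median of 1.19, and 9 had an unadjusted p under 0.05. The median was 1.88 in WGD- and 0.67 in WGD+ tumours, with 8 and 0 members at an unadjusted p under 0.05. Cd3e, a chain of the CD3 complex found in all T cells, stood at 2.53, 3.71 and 1.04 in WGD- and 0.59, 1.53 and 2.35 in WGD+ anti-PD-L1 libraries, against 0.59 and 0.20 in WGD- and 0.44, 0.23 and 0.27 in WGD+ anti-CD8 libraries. It did not overlap within a form (1.56, SE 0.44, adjusted p = 0.479), and neither did Lat, an adaptor of T cell receptor signalling (1.27, SE 0.37, adjusted p = 0.479). The 9 tested genes of CD4 and regulatory T cells had a median difference of 0.70 over both forms, with 9 above 0 and 2 at an unadjusted p under 0.05, namely Ctla4 at 1.05 (SE 0.42, adjusted p = 0.692) and Il2ra at 0.91 (SE 0.41, adjusted p = 0.697). The median of these 9 was 1.19 in WGD- tumours, with 5 at an unadjusted p under 0.05. In WGD+ tumours it was 0.31, with 6 of 9 above 0 and 0 at an unadjusted p under 0.05. Natural killer cell genes had a median of 0.78 over 8 tested of 13 listed, with 8 above 0 and 4 at an unadjusted p under 0.05. Of these, Klrc1, which encodes the receptor NKG2A that CD8 T cells also carry, differed by 1.54 (SE 0.49, adjusted p = 0.533), and Il2rb by 1.45 (SE 0.57, adjusted p = 0.692). The natural killer list median was 1.39 in WGD- and 0.34 in WGD+ tumours, with 4 and 0 members at an unadjusted p under 0.05.

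Among the checkpoint genes, 14 of 17 were tested, 13 lay above 0 over both forms (median 0.63) and 7 had an unadjusted p under 0.05. The median was 1.11 in WGD- and 0.33 in WGD+ tumours, with 8 and 1 members at an unadjusted p under 0.05. Pdcd1lg2 (chr19:29410919-29471161), which encodes PD-L2, the second ligand of PD-1, stood at 4.46, 4.6 and 2.39 in WGD- and 1.29, 3.09 and 3.21 in WGD+ anti-PD-L1 libraries, against 0.88 and 0.38 in WGD- and 1.22, 0.51 and 0.50 in WGD+ anti-CD8 libraries. Its groups did not overlap in either form, with a difference of 2.41 (SE 0.50, adjusted p = 0.366). Tnfrsf9, the costimulatory receptor 4-1BB, differed by 0.89 (SE 0.30, adjusted p = 0.578).

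The median difference of macrophage genes was smaller in WGD+ than in WGD- tumours. The 17 macrophage genes had a median difference of 0.92 over both forms, 0.14 in WGD+ and 1.93 in WGD- tumours. At an unadjusted p under 0.05, 1 was higher and 1 lower in WGD+ tumours, 13 of 17 were higher in WGD- tumours, and for the difference between forms 7 of 17 were lower in WGD+ at an unadjusted p under 0.05, with none passing the adjusted threshold. Without WGD+ anti-CD8 replicate 2 the WGD+ median turned to -0.18. Arg1, which encodes arginase of alternatively activated macrophages, was the macrophage gene with the smallest p at 8.76, 7.75 and 6.89 in WGD- and 6.71, 7.81 and 6.88 in WGD+ anti-PD-L1 libraries, against 5.33 and 4.97 in WGD- and 6.11, 6.01 and 5.89 in WGD+ anti-CD8 libraries. It did not overlap in either form (1.81, SE 0.39, adjusted p = 0.366), and Chil3, another gene of that macrophage state, differed by 0.93 (SE 0.39, adjusted p = 0.697). By contrast Csf1r, the receptor that macrophages need to survive, differed by 0.12 in WGD+ tumours (adjusted p = 0.983) and by 1.93 in WGD- tumours (adjusted p = 0.142).

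Of the cytokine and chemokine genes, 17 of 19 were tested, 17 lay above 0 and 12 had an unadjusted p under 0.05 over both forms. Their median was 0.96 over both forms, 0.42 in WGD+ and 1.51 in WGD- tumours, and 4 were lower in WGD+ for the difference between forms at an unadjusted p under 0.05. Ccl4, which encodes a chemokine of activated T cells and macrophages, stood at 2.30, 3.81 and 2.41 in WGD- and 1.43, 2.35 and 2.46 in WGD+ anti-PD-L1 libraries, against 1.18 and 1.23 in WGD- and 1.22, 1.07 and 1.17 in WGD+ anti-CD8 libraries, with no overlap (1.24, SE 0.31, adjusted p = 0.366). Ccl8, a monocyte-attracting chemokine, differed by 2.45 (SE 0.67, adjusted p = 0.479), also without overlap. Type I interferon response genes, which share many targets with interferon-gamma, differed less: 20 were tested, 18 lay above 0, the median was 0.67 and 4 had an unadjusted p under 0.05, the smallest for Zbp1, a nucleic acid sensor (1.77, adjusted p = 0.467). Their median was 0.78 in WGD- and 0.47 in WGD+ tumours, with 4 and 0 members at an unadjusted p under 0.05.

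**Figure D3:**
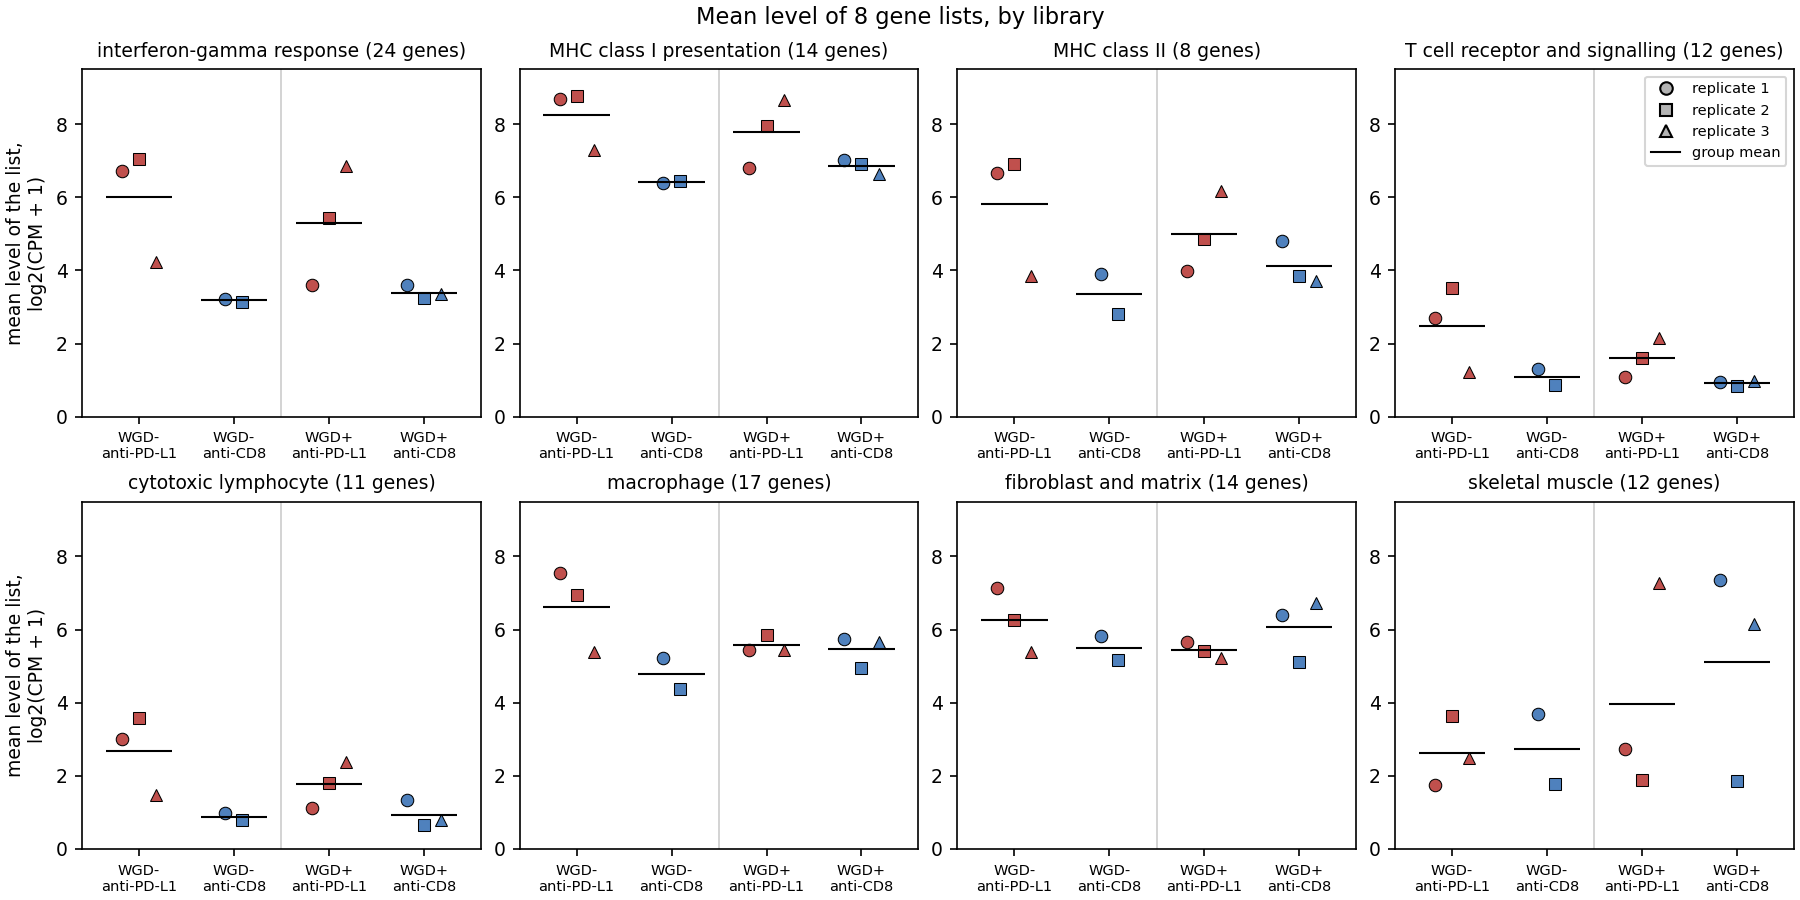
Mean level of 8 gene lists in each library (y axis, log2(CPM + 1)), by form and antibody (x axis), with symbols for the replicate number and a line for the group mean. The interferon-gamma list lay at 6.73, 7.04 and 4.22 in WGD- and 3.6, 5.44 and 6.84 in WGD+ anti-PD-L1 libraries, against 3.23 and 3.14 in WGD- and 3.59, 3.24 and 3.35 in WGD+ anti-CD8 libraries, and the skeletal muscle list was high in 3 WGD+ libraries of both antibodies.

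The anti-PD-L1 libraries differed widely among themselves in these genes. Over the 24 interferon-gamma genes the median SD between replicates was 1.59 in WGD- and 1.74 in WGD+ anti-PD-L1 tumours, against 0.16 in WGD- and 0.31 in WGD+ anti-CD8 tumours. Over all genes tested the median SD was 0.28 and 0.21 under anti-PD-L1, in the order WGD- and WGD+, against 0.13 and 0.20 under anti-CD8. WGD- anti-PD-L1 replicate 3 was the lowest of its group in 24 of the 24 genes and WGD+ anti-PD-L1 replicate 1 in 24 of 24. WGD- anti-PD-L1 replicate 3 still lay above both WGD- anti-CD8 libraries in 22 of the 24, whereas WGD+ anti-PD-L1 replicate 1 lay above all 3 WGD+ anti-CD8 libraries in 7. The mean level of the T cell list was lowest in the same libraries, 1.21 in WGD- replicate 3 and 1.08 in WGD+ replicate 1, against 2.69 and 3.51 in the other two WGD- and 1.60 and 2.16 in the other two WGD+ anti-PD-L1 libraries. The mean interferon-gamma list level in isotype libraries was 4.77, 6.15 and 5.78 in WGD- and 5.07, 2.53 and 4.61 in WGD+ tumours.

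Each of these libraries changed a count of called genes when it was left out. Without WGD+ anti-PD-L1 replicate 1, 23 genes were called over both forms, all higher, among them Cd274, Irf1, Igtp, Tap1, Tap2, Tapbp, Pdcd1lg2 and Ifng, with adjusted p of 0.0378 for Cd274 and 0.0151 for Irf1. Without WGD- anti-PD-L1 replicate 3, Clec2d alone was called over both forms (1.13, adjusted p = 0.0106), and in WGD- tumours, now 2 libraries against 2, 3069 genes were called, 1655 higher and 1414 lower. Both libraries are singled out here after their values were seen, and the counts over all 11 libraries are the result reported.

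The 4 genes with the smallest p in each direction over both forms were in none of the lists, except Zfp36, which is in the immediate early list. Clec2d, a C-type lectin-like ligand of the NK receptor NKR-P1D, stood at 6.77, 6.69 and 5.95 in WGD- and 6.04, 6.41 and 6.63 in WGD+ anti-PD-L1 libraries, against 5.43 and 5.57 in WGD- and 5.37, 5.20 and 5.33 in WGD+ anti-CD8 libraries. It was 1.02 higher (SE 0.16) with the smallest adjusted p of the comparison, 0.294, and all 6 libraries lay above all 5. C1ra, a complement protease subunit, differed by 1.00 (SE 0.18), Mmp13, a collagenase, by 1.13 (SE 0.20) and Zfp36, which encodes the mRNA-destabilizing protein tristetraprolin, by 0.77 (SE 0.14), each with an adjusted p of 0.305 and no overlap within either form.

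On the lower side Acaa2, a mitochondrial enzyme of fatty acid oxidation, stood at 5.40, 5.70 and 5.41 in WGD- and 5.91, 5.88 and 5.54 in WGD+ anti-PD-L1 libraries, against 6.08 and 6.08 in WGD- and 6.23, 6.12 and 6.33 in WGD+ anti-CD8 libraries. Every anti-PD-L1 library lay below every anti-CD8 library (-0.51, SE 0.11). Slc25a42, the mitochondrial carrier of coenzyme A, differed by -1.12 (SE 0.25), Ppl, which encodes the desmosomal protein periplakin, by -0.98 (SE 0.22) and Angptl4, a secreted inhibitor of lipoprotein lipase, by -0.91 (SE 0.21). All 4 had an adjusted p of 0.366. Ppl overlapped in WGD+ tumours and the others did not overlap.

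Ranked by size among the genes without overlap whose higher group averaged at least 3, an order chosen after the values were seen, the largest differences belonged to Gbp4 (3.62), Ubd (3.22), which encodes the ubiquitin-like modifier FAT10, Gbp5 (3.21), Gbp2b (3.17), Gbp6 (2.94), Gbp2 (2.73), Acod1 (2.60), which makes itaconate in activated macrophages, and Ccl8 (2.45). Ubd read 5.03, 5.90 and 2.31 in WGD- and 1.38, 4.05 and 4.89 in WGD+ anti-PD-L1 libraries, against 0.59 and 0.74 in WGD- and 1.22, 0.42 and 0.27 in WGD+ anti-CD8 libraries. Downward the largest were Aldh3a1 (-1.48), an aldehyde dehydrogenase, Slc25a42, and Slc40a1 (-1.02), which encodes the iron exporter ferroportin. Aldh3a1 read 2.25, 3.19 and 4.81 in WGD- and 4.47, 3.84 and 4.31 in WGD+ anti-PD-L1 libraries, against 5.24 and 5.01 in WGD- and 5.21, 5.49 and 5.84 in WGD+ anti-CD8 libraries. Each of the 8 higher genes named had a difference larger in size than that of Aldh3a1.

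In WGD- tumours the smallest p belonged to Zfp36, at 6.43, 6.63 and 6.22 under anti-PD-L1, against 5.27 and 5.26 under anti-CD8 (1.16, adjusted p = 0.0882). Next came Mvp, the major vault protein gene (0.99), Npc2, a lysosomal cholesterol carrier (0.89), and Neat1, a nuclear long noncoding RNA (1.33), each at an adjusted p of 0.116. The lower genes were Kcnk1, a potassium channel, at 4.74, 4.49 and 4.94 under anti-PD-L1, against 5.93 and 5.99 under anti-CD8 (-1.24, adjusted p = 0.0914), with Rps6ka6, a ribosomal S6 kinase (-1.21), Trp53inp1, a p53-induced stress gene (-1.20), and Psat1, an enzyme of serine synthesis (-0.81), at an adjusted p of 0.116. For these 8 genes all 3 anti-PD-L1 libraries lay on one side of both anti-CD8 libraries. They were picked by the smallest p in this same comparison, where 15.4% of all genes were higher and 21.5% lower without overlap.

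The p53 target genes, which p53 switches on after DNA damage and other stress, lay mostly below 0 in WGD- tumours. Of the 12 members, all tested, 0 in either direction in WGD+ tumours, and 7 lower and 0 higher in WGD- tumours, had an unadjusted p under 0.05. Their median difference was 0.09 in WGD+ and -0.63 in WGD- tumours, and 7 of 12 were higher in WGD+ for the difference between forms at an unadjusted p under 0.05. Eda2r, a death receptor gene that p53 switches on, stood at 3.90, 3.59 and 4.05 under anti-PD-L1, against 3.12, 4.15 and 3.87 under anti-CD8 in WGD+ tumours, and at 3.39, 3.01 and 3.95 under anti-PD-L1, against 5.14 and 5.29 under anti-CD8 in WGD- tumours. The WGD+ difference was 0.13 (adjusted p = 0.972), the WGD- difference -1.77 (adjusted p = 0.116), and WGD+ minus WGD- 1.91 (adjusted p = 0.227). Zmat3, a p53-induced RNA-binding protein gene, differed by -0.97 in WGD- tumours (adjusted p = 0.125). Ccng1 (-1.19) and Mdm2 (-0.68), the gene of the ubiquitin ligase that degrades p53, had an adjusted p of 0.116 in WGD- tumours. The list was not uniform there, since 2 of the 12 members lay above 0, the highest at 1.04. These values rest on only 2 WGD- anti-CD8 libraries.

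Cell cycle genes had small differences, mostly below 0 in WGD- tumours. Of the 15 G2/M genes 15 were below 0 over both forms (median -0.19, -0.42 in WGD- and -0.02 in WGD+ tumours), with 0 at an unadjusted p under 0.05 over both forms and 5 lower in WGD- tumours. Of the 16 S phase genes 16 were below 0 over both forms (median -0.16, -0.34 in WGD- and -0.07 in WGD+ tumours), with 5 lower in WGD- tumours. Ccnb1, which encodes cyclin B1, differed by -0.89 in WGD- tumours (adjusted p = 0.116) and 0.06 in WGD+ tumours (adjusted p = 0.974). In WGD- tumours the mean level of the macrophage list was 7.54, 6.93 and 5.39 under anti-PD-L1, against 5.22 and 4.37 under anti-CD8, and that of the G2/M list 6.42, 6.5 and 6.99 under anti-PD-L1, against 7.0 and 6.95 under anti-CD8; the part of one in the other was not tested.

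**Figure D4:**
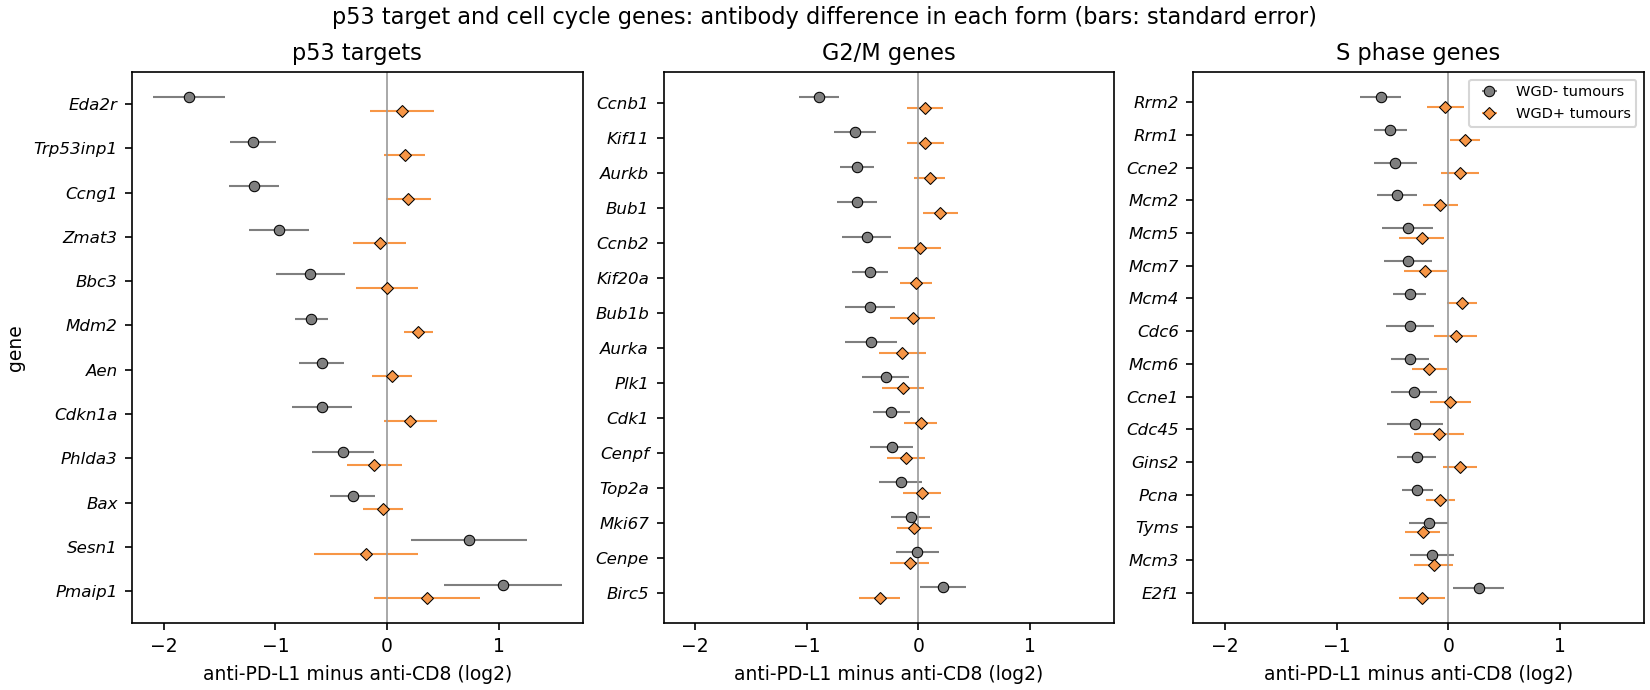
Difference between anti-PD-L1 and anti-CD8 tumours (x axis, log2) of the tested p53 target, G2/M and S phase genes (y axis), with grey circles for WGD- and orange diamonds for WGD+ tumours and bars for the standard error. Most WGD- points lie left of 0, down to -1.77 for Eda2r, while WGD+ points lie around 0.

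In WGD+ tumours no gene came near the threshold in the fit of all 11 libraries, the smallest adjusted p being 0.969. That value varied with the libraries used. The smallest limma adjusted p was 0.549 with the WGD+ libraries alone and 0.102 without WGD+ anti-CD8 replicate 2, with 0 genes called in each. The genes with the smallest unadjusted p were Has2, a hyaluronan synthase (0.80), Clec2d (1.06), Cd200, an immune-inhibitory surface protein gene (0.77), and Nppb, a natriuretic peptide gene (0.74), on the higher side. Has2 read 5.34, 5.06 and 5.40 under anti-PD-L1, against 4.5, 4.48 and 4.43 under anti-CD8. On the lower side stood Angptl4 (-1.19), the pericyte genes Mcam (-0.81) and Cspg4 (-1.13), and Lrig1, a negative regulator of growth factor receptors (-1.13). Mcam read 5.46, 5.20 and 5.08 under anti-PD-L1, against 6.09, 5.89 and 6.19 under anti-CD8.

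Stromal genes pointed in opposite directions in the 2 forms. Fibroblast and matrix genes had a median of -0.64 in WGD+ and 0.86 in WGD- tumours, and endothelial genes -0.64 in WGD+ and 0.59 in WGD- tumours. For the difference between forms 4 of 14 fibroblast and 5 of 11 endothelial genes were lower in WGD+ at an unadjusted p under 0.05, with 0 passing the adjusted threshold. Fn1, the fibronectin gene, had the smallest p of the fibroblast list over both forms (0.72, adjusted p = 0.727). Hypoxia and glycolysis genes had a median of 0.75 in WGD+ and 0.02 in WGD- tumours, with 7 of 14 higher at an unadjusted p under 0.05 in WGD+ tumours. Hk2, the hexokinase that opens glycolysis, differed by 0.72 over both forms (adjusted p = 0.397). Skeletal muscle genes moved with libraries of the WGD+ groups: the mean level of that list was 2.73, 1.89 and 7.26 under anti-PD-L1, against 7.35, 1.87 and 6.14 under anti-CD8, and the mean level of the hypoxia list was 7.42, 8.02 and 7.56 under anti-PD-L1, against 6.61, 7.74 and 6.48 under anti-CD8. The WGD+ anti-CD8 libraries with muscle genes, replicates 1 and 3, were also the highest of that group in fibroblast genes (6.40 and 6.72, against 5.12 in replicate 2) and the lowest in hypoxia genes, and the part of muscle tissue in these differences was not tested.

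**Figure D5:**
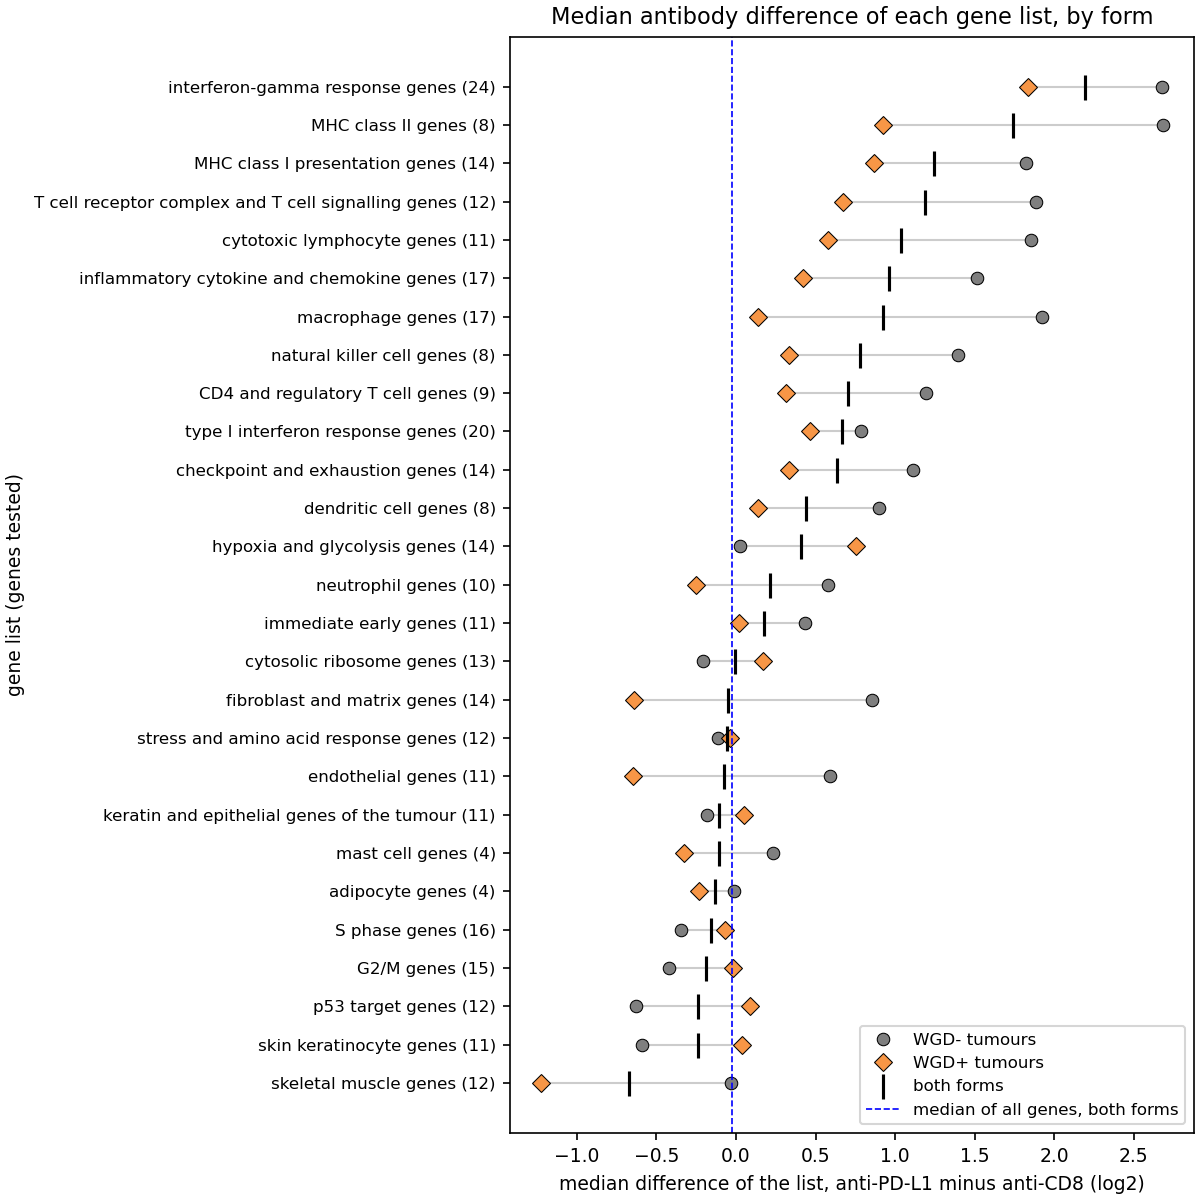
Median difference between anti-PD-L1 and anti-CD8 tumours (x axis, log2) of each gene list with at least 3 tested members (y axis, number tested in brackets), with grey circles for WGD- tumours, orange diamonds for WGD+ tumours, black bars for both forms and a dashed line for the median of all genes (-0.02). The interferon-gamma, MHC and lymphocyte lists lie right of the line in both forms with the WGD- value farther out, while the fibroblast, endothelial, neutrophil and mast cell lists lie right of it in WGD- and left of it in WGD+ tumours.

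The difference between the forms, WGD+ minus WGD-, was itself tested for every gene. The smallest p belonged to Kcnk1, Rps6ka6, Trp53inp1 and Rmi1, a subunit of the complex that dissolves DNA crossovers, on the side higher in WGD+, and to Neat1, Il3ra, a chain of the interleukin-3 receptor, Pdgfb, a platelet-derived growth factor gene, and Relb, an NF-kappaB subunit, on the side lower in WGD+. All 8 had an adjusted p of 0.227. Neat1 stood at 8.96, 8.88 and 8.80 under anti-PD-L1, against 9.20, 8.65 and 9.45 under anti-CD8 in WGD+ tumours, and at 9.16, 9.40 and 9.21 under anti-PD-L1, against 7.75 and 8.11 under anti-CD8 in WGD- tumours. The antibody groups overlapped in WGD+ tumours and separated in WGD- tumours. For the 4 genes of the antibody targets and PD-1 the difference between forms had an adjusted p of 0.571 or more, with larger differences in WGD- tumours for each. Cd274 differed by 2.03 (SE 0.75) in WGD+ and 2.88 (SE 0.84) in WGD- tumours, and Cd8a by 1.61 (SE 0.85) in WGD+ and 2.40 (SE 0.95) in WGD- tumours. Without WGD- anti-PD-L1 replicate 2 the Cd8a and Pdcd1 differences between forms changed sign.

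Immediate early genes, which switch on within minutes of a stimulus, had a median of 0.17 over both forms, 0.02 in WGD+ and 0.43 in WGD- tumours. At an unadjusted p under 0.05, 1 of 11 was higher in WGD+ tumours, 4 were higher in WGD- tumours, and 4 were lower in WGD+ for the difference between forms. In WGD- tumours 7 of 11 were higher and 1 lower without overlap, against 15.4% of all genes higher and 21.5% lower. Jun, a subunit of the transcription factor AP-1, differed by 0.22 in WGD+ tumours (adjusted p = 0.969) and by 1.14 in WGD- tumours (adjusted p = 0.116). Dendritic cell genes had a median of 0.44 over both forms, 0.14 in WGD+ and 0.90 in WGD- tumours, where 4 of 8 were higher at an unadjusted p under 0.05. Neutrophil genes had a median of 0.21 over both forms, -0.25 in WGD+ and 0.58 in WGD- tumours, and 3 of 10 were lower in WGD+ for the difference between forms at an unadjusted p under 0.05. Mast cell genes had a median of -0.11 over both forms, -0.33 in WGD+ and 0.23 in WGD- tumours, over 4 tested. Stress and amino acid response genes had a median of -0.06 over 12, with 4 lower in WGD- tumours at an unadjusted p under 0.05, Psat1 among them. Tumour keratin and epithelial genes had a median of -0.11 over 11 tested, with Cldn4 and Elf3 at the smallest p, skin keratinocyte genes -0.24 over 11 and adipocyte genes -0.13 over 4. Cytosolic ribosome genes had a median of -0.00 over 13 in both forms together, 0.17 in WGD+ and -0.21 in WGD- tumours. For the difference between forms 3 of 13 were higher in WGD+ at an unadjusted p under 0.05. Of 17 B cell and plasma cell genes 1 passed the filter, of 10 liver genes 2, of 7 erythroid genes 1 and of 8 eosinophil genes 0, and 17 listed genes, among them the constant regions of T cell and immunoglobulin receptors, were not analysed here.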

How the data were processed

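Bulk tumour RNA was measured by stranded mRNA sequencing (500 ng input, per the labels' protocols). The values are the deposited log2(CPM + 1) levels, which the authors scaled by TMM over 17 libraries, the 6 isotype libraries included; STAR 2.5.1b, edgeR and the mm10 build are named in the submitters' processing notes. Dividing by the worth of 1 read gave whole reads for 100% of values within 0.1 read in all 11 libraries, and these recovered reads were used for the voom alternative. Of 20185 rows, 25 whose symbols had become dates were left out (at most 0.185% of a library's reads). Of all 20185 rows, 98.4% had symbols that matched GENCODE M21, and 275 more matched RefSeq.

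Genes above 1 CPM in at least 3 of the 11 libraries were tested with limma 3.58.1 in R 4.3.3 (trend and robust moderation, Benjamini-Hochberg threshold 0.05). The fit over both forms had genotype as covariate, and a fit of the 4 group means gave each form and the difference between forms, so all groups share one spread. The script was tested on simulated data. The libraries, the 33 gene lists and the rules were chosen with earlier results of these data known. The rules picked the 4 target genes, 4 genes each way with the smallest p in each comparison and 2 members of each list with the smallest p. Some list members so picked, such as Cd22, are not named in the text. Other genes, such as Cxcl9, Gzmb, Tap1, Psmb9, Nlrc5, H2-K1, B2m, Csf1r, Ccng1 and Mdm2, were chosen after their values were seen. A member of the interferon-gamma list is counted with the list but not reported here by itself. Alternatives changed the filter, pseudocount, normalization, covariate, replicate block and libraries; a weight per antibody and the permutation tests were added after seeing the data.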

Additional observations from a re-analysis of the deposited data

How the results depend on the processing

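The count of called genes was 0 in all 4 comparisons with no filter, a looser filter, another pseudocount, quantile normalization, voom on recovered reads, no genotype covariate (both forms), only the libraries of one form, and without the library that stands apart. A weight per antibody, chosen after seeing the data, called 1 gene in WGD- tumours, Zfp36 (1.16, limma adjusted p = 0.0365). With the replicate number as a replicate block, 2600 genes were called in WGD- tumours (1601 higher, 999 lower), 1162 for the difference between forms, and 0 over both forms and in WGD+ tumours. WGD- anti-PD-L1 replicate 3 has no partner and by construction does not enter that WGD- estimate. The numbers were not taken to pair the libraries, since same-numbered libraries had deviations correlated at 0.29 and -0.22 in WGD- and -0.23, 0.25 and 0.21 in WGD+ tumours. Leaving out 1 library at a time gave 0 to 23 calls over both forms, 0 to 3069 in WGD- tumours and 0 to 1308 for the difference between forms, with nonzero counts without WGD- anti-PD-L1 replicate 3 (1, 3069 and 1308) and without WGD+ anti-PD-L1 replicate 1 (23 over both forms). The sign turned for Lpar3 with no genotype covariate (0.0212) and, when 1 library was left out, for Alb (-0.44 to 0.19), Krt1 (-1.30 to 0.0518), Alas2 (-0.0440 to 0.35) and Lipe (-0.0185 to 0.18) over both forms and for Cd8a (-1.78 to 0.0362) and Pdcd1 (-1.50 to 0.16) in the difference between forms; the cause was not tested. The median of the fibroblast list over both forms ranged from -0.29 to 0.17 and that of the endothelial list from -0.27 to 0.15. Groups held 2 or 3 libraries, and depth gave 0.0692 to 0.0903 CPM per read.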
